A study of Mus musculus with 18 samples.

Results

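Expression of 6 complement genes was followed in the stroma of mouse bone marrow (BM) from fetal life to adulthood: C3, C4b, C1s1, C1ra, Serping1 and Cfd, which are 6 of the 20275 genes in the single-cell count matrix. The genes were taken by name from a list drawn up with earlier results of these data known, so their counts of calls are a description. They were measured in every cell that the study assigned to its stromal sort, and the levels are given by stage and by the cluster codes of the deposited annotation. The study profiled C57B6/J mice at embryonic day 16.5 (E16.5), E18.5, the day of birth (P0) and adulthood, with no mutant, transgene or treatment in any group. Stromal cells were sorted as CD45-Ter119-, that is, without the pan-leukocyte antigen CD45 and the erythroid antigen Ter119, and were processed as single-cell RNA-Seq with antibody tags (CITE-Seq). Each stage gave 1 stromal library, pooled from several mice, so a difference between stages has no replicate check and no test is given. Fetal and P0 cells came from the skeleton without the head, whereas adult cells came from tibias, femurs, pelvic bones and spines and passed through red cell lysis. Stage therefore cannot be told apart from the bones taken, the cell preparation or the library.

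Complement is a cascade of plasma proteins that marks surfaces for removal. In the classical pathway the recognition protein C1q activates the proteases C1r and C1s, which cleave C4 and C2, and the products form an enzyme that cleaves C3, where all pathways meet. In the alternative pathway factor D cleaves factor B bound to C3. Most plasma complement comes from the liver, but fibroblasts, adipocytes and macrophages also express components. In the marrow, CXCL12-abundant reticular cells (CARs) and PDGFRα+Sca-1+ mesenchymal stromal cells (PαS) are stromal populations that contact or support blood cell formation.

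The members lie on 4 chromosomes of the GRCm38 build, the same assembly as the mm10 build of the submitters' processing notes. C1ra (chr6:124512405-124523443, plus strand) and C1s1 (chr6:124530345-124542359, minus strand) are neighbours in opposite orientation, and 6901 bases separate their 3′ ends. C3 lies at chr17:57203970-57228136 and C4b at chr17:34728380-34743882, both on the minus strand. Serping1 lies at chr2:84765387-84775444 (minus strand) and Cfd at chr10:79890853-79892655 (plus strand). RefSeq promoter entries on GRCm38 were matched for 4 of the 6 members. Those of C3 and C1s1 are shown, as the 250 bases before the start, because C3 was close to absent before adulthood whereas C1s1 was measured at all stages. C3 is read from chr17:57228137-57228386 and C1s1 from chr6:124542360-124542609, both on the minus strand. Capitals mark matches, on either strand, to the kappa B motif (GGG and CC with 5 bases between) or a C/EBP pattern set here (TTGC and AA with 3 bases between). The GAS motif (TTC and GAA with 3 bases between) and the ISRE motif (GAAA and GAAA with 2 bases between) were marked too. A C/EBP match means this pattern only. Sites with 2 bases between TTGC and AA were not searched, and ttgcgaaa in the C3 window is such a site. The windows are therefore not compared for C/EBP sites.
C3: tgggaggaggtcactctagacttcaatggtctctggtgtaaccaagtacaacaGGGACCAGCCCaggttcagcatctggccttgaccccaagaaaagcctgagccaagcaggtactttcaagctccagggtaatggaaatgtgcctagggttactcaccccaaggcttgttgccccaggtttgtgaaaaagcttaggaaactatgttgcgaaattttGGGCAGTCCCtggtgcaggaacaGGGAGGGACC
C1s1: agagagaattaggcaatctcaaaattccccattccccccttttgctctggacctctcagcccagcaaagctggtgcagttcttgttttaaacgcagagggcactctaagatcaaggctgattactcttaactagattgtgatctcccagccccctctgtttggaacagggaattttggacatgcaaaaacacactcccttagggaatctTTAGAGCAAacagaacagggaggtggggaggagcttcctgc
The C3 window held 4 kappa B matches, of which 2 overlapped. The C1s1 window held 1 C/EBP match, at bases 41 to 33 before the start. A second RefSeq entry of C1s1, not printed, held 2 C/EBP matches and 1 kappa B match. Over 32851 promoters, 45.8% held a kappa B match, 8.29% a C/EBP match, 7.02% a GAS match and 2.98% an ISRE match in a window of this length, so a kappa B match by itself is common.

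The 4 stromal libraries held 35219 cells, 6267 to 14084 per library, with 91868751 to 194892476 unique molecular identifiers (UMIs) per library and median depths of 11810 to 15591 UMIs per cell. The cells carried 66 cluster codes, 15 to 19 per stage, which were grouped into classes by the study's names and, where markers differed from the name, by marker genes. The class differs from the stem of the paired name in 20 of the 66 codes. Among these, E16.5 F4 was paired with a fibroblast name and the mural codes P2 and P4 with a muscle name, while 5 muscle codes were paired with a pericyte name. E18.5 C5 and P0 C2i and C2ii were paired with osteolineage names but classed as cartilage, and F8, named PαS, was classed as fibroblast. Between 12 and 38 cell barcodes were shared between any pair of stromal libraries. At P0, 10.4% of cells had under 1000 UMIs, against at most 2.53% in the other stromal libraries. Markers of blood cells and hepatocytes were summed in the stromal cells. The study's methods report that contaminating blood cells were taken out of the stromal data it shows. Low sums are therefore no independent check of the label. The summed level of 6 macrophage markers was 3.81 to 10.1 counts per 1000000 UMIs (CPM), and that of 4 neutrophil markers 0.329 to 4.42 CPM. That of the 2 measured hepatocyte markers was 0.479 to 0.698 CPM. At E16.5 1 macrophage marker was at 0, as was 1 neutrophil marker at E18.5. The 4 B cell markers summed to more, 134 to 251 CPM per library, with 694 in adult code F8 and 967 in the adult code CARs. In the mural codes E18.5 P2 (665 CPM) and adult P4 (710 CPM), 3 of these 4 markers were at 0, so 1 gene gave the sum there. The genes behind the other B cell sums were not separated. The 4 erythroid markers, none at 0, summed to 1.78 to 5.01 CPM before adulthood and 170 CPM in the adult library. There 31.5% of cells held a UMI of the globin gene Hbb-bs, against at most 0.924% in the other libraries. Among adult codes the erythroid sum was highest in mural code P4, at 3239 CPM, followed by the CARs at 424. The part of these blood markers in the results, those of P4 included, was not tested.

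Across all stromal cells, every member had its highest level in the adult library. Levels are CPM, from the UMIs of the gene and of all genes summed over the cells named, with exact Poisson 95% intervals. Intervals here and below cover counting error only, and in pooled cells a larger share of a cell type cannot be told apart from more RNA per cell unless a cluster is named. C3, on which all activation pathways converge, was at 0.530 CPM (0.407 to 0.680) in the E16.5 library, at 0.925 CPM (0.756 to 1.12) in that of E18.5 and at 0.759 CPM (0.642 to 0.892) in that of P0. In the adult library it was at 105 CPM (103 to 107). Before adulthood C3 stood at 62 to 148 UMIs per library, close to absent, and the adult library alone was high. The adult to P0 ratio was 138 (117 to 163).

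C4b, which encodes the C4 cleaved by C1s, had a perinatal level well above that of C3. In stage order the levels were 8.37 CPM (7.86 to 8.91), 19.4 (18.6 to 20.3), 14.5 (14.0 to 15.1) and, in the adult, 106 CPM (104 to 109), an adult to P0 ratio of 7.33 (7.03 to 7.65). The perinatal levels were not ordered by age, since E18.5 lay above P0 beyond counting error (P0 to E18.5 ratio 0.747, 0.707 to 0.791).

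The C1 proteases and the C1 inhibitor were ordered by age at all 4 stages. C1s1, the protease that cleaves C4, was at 3.46, 7.34, 11.8 and 67.7 CPM from the E16.5 to the adult library, and the adult to P0 ratio was 5.75 (5.48 to 6.04). C1ra, the protease that activates C1s, was at 0.984, 3.24, 7.12 and 53.7 CPM in the same order, and its adult to P0 ratio was 7.55 (7.11 to 8.02). Serping1, the C1 inhibitor that inactivates C1r and C1s, was the most abundant member in every library but that of E18.5, at 14.0, 19.05, 33.9 and 538 CPM, and its adult to P0 ratio was 15.9 (15.5 to 16.3). At E18.5 the interval of Serping1 (18.2 to 19.9) overlapped that of C4b. Levels per gene in this 3′ assay are UMIs of one transcript end and carry no length term.

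**Figure D1:**
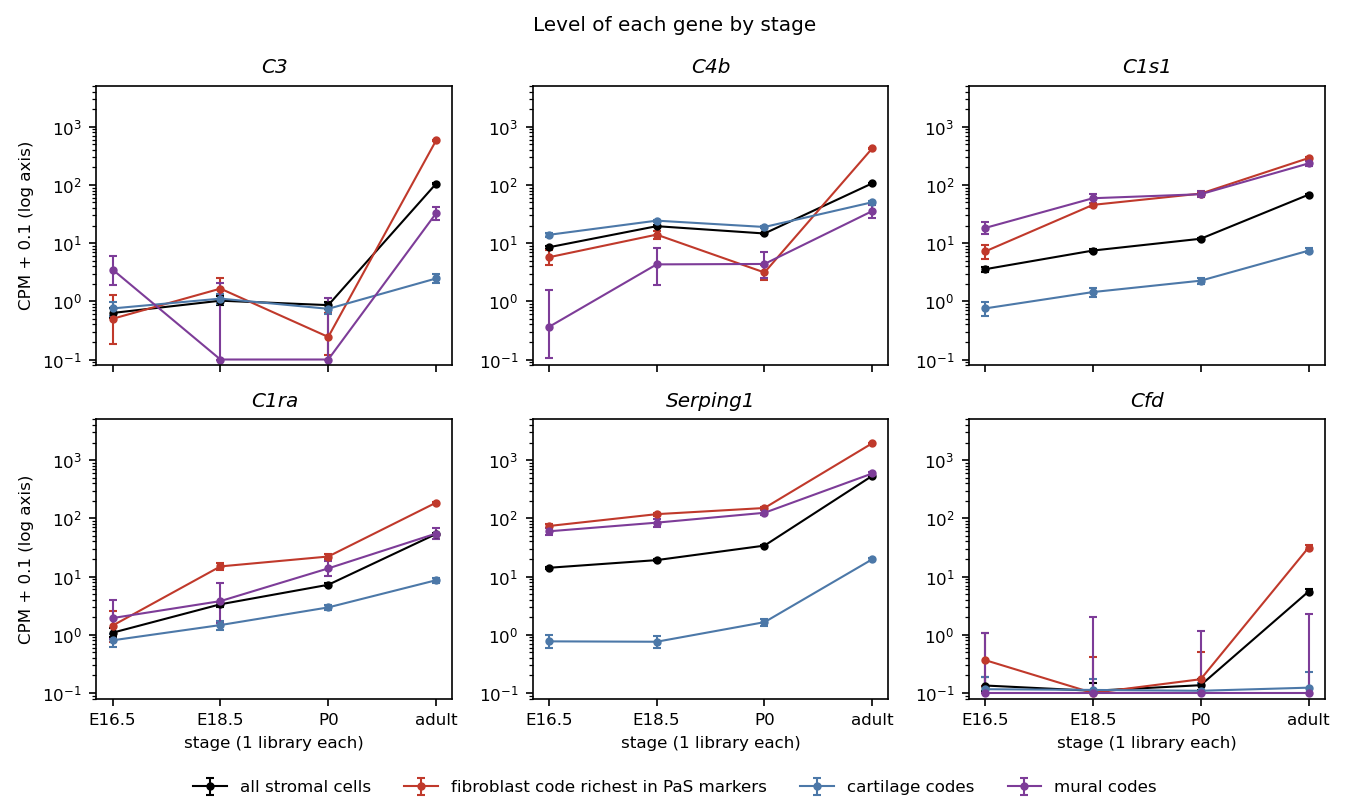
Level of each member by stage, as CPM + 0.1 on a log axis, over all stromal cells (black), the fibroblast code richest in PαS markers (red), the cartilage codes (blue) and the mural codes (purple), with exact Poisson 95% intervals as bars and 1 library per stage. The black points are highest in the adult for each member, and the adult points of Cfd rest largely on 1 cell.

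Cfd, which encodes factor D, the adipocyte-rich protease of the alternative pathway, was at 4, 1 and 7 UMIs in the libraries before adulthood and at 498 UMIs (5.42 CPM) in the adult. Of these 498 UMIs, 453 (91.0%) came from a single cell of the adult code F8. That cell had 11443 UMIs in all, among them 31 of Adipoq and 13 of Fabp4, which are adipocyte genes, and 3 of Pparg and 1 of Lpl, but none of Plin1, Lepr, Pi16 or Pdgfra. Only 19 adult cells held any Cfd UMI, including 8 sinusoidal endothelial cells (SECs) with 29 UMIs and 6 CARs with 11. Without the richest cell the adult level was 0.490 CPM (0.357 to 0.656) and the adult to P0 ratio 13.6 (6.11 to 35.8). Cfd UMIs were thus confined to few cells at this depth, and the gene is left out of the comparisons below except for the counts of members.

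A gene was counted as called when its CPM differed at least 4-fold with at least 50 UMIs in the higher library. Between P0 and adult, 6 of 6 members were higher in the adult, against 6.36% of 15402 genes tested (4.6% were lower), and 5 remained so without the cell richest in Cfd. Between E16.5 and P0, 1 of 5 members tested, C1ra (7.24-fold, 5.98 to 8.83), was higher at P0, against 1.11% of 15143 genes (0.291% were lower). The median log2 ratio of the members tested was 2.77 for adult against P0 and 1.21 for P0 against E16.5, where the medians over all genes tested were 0.15 and -0.04, on the log2(CPM + 1) scale.

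The adult counts of the 5 abundant members came mostly from the code F8 and the CARs. F8 (1125 cells) carried the markers of PαS, with Ly6a (Sca-1) at 2543 CPM, Clec3b at 1663 and Pi16 at 439.5, and it was the fibroblast code with the highest summed PαS markers (7352 CPM, next code F12 at 2821). The CARs (359 cells) carried Cxcl12, Lepr, Adipoq, Kitl, Foxc1 and Ebf3 at a summed 25129 CPM, against 873 in F8. F8 held 15.8% of adult stromal UMIs and the CARs 3.27%. Together these codes held 93.6% of the C3 counts, 72.6% of C4b, 76.3% of C1s1, 73.4% of C1ra and 74.2% of Serping1.

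The order of F8 and the CARs depended on the member. C3 was at 580.0 CPM in F8 and 186 in the CARs, a ratio of 3.12 (2.87 to 3.41). C4b was at 426 and 300.3 CPM (ratio 1.42, 1.32 to 1.52), and C1s1 at 289 and 182 CPM (ratio 1.59, 1.45 to 1.74). The cleaved components C3 and C4b, and the protease that cleaves C4, were therefore higher in F8. C1ra and Serping1 had the opposite order. C1ra was at 186 CPM in F8 and 307 in the CARs (CAR to F8 ratio 1.65, 1.53 to 1.78). Serping1 was at 1951 and 2761 CPM (ratio 1.42, 1.38 to 1.45).

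In other adult stroma the members did not go together. The mural code P4 (170 cells, Rgs5- and Acta2-type pericyte and smooth muscle markers summed to 16646 CPM) had C1s1 at 234 CPM, between F8 and the CARs, and Serping1 at 589.7, but C1ra at only 54.7. The osteolineage code had Serping1 at 383 CPM, C1s1 at 57.2 and C1ra at 51.2, with C3 at 1.07. Muscle code P1 had Serping1 at 487 CPM. Serping1 was thus the widest of the members, and among the fibroblast codes it ranged from 262 CPM in F11 to 1951 in F8. The cartilage codes had Serping1 at 10.2 to 25.8 CPM, and muscle code P5 (21 cells, 1 UMI) at 9.30.

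**Figure D2:**
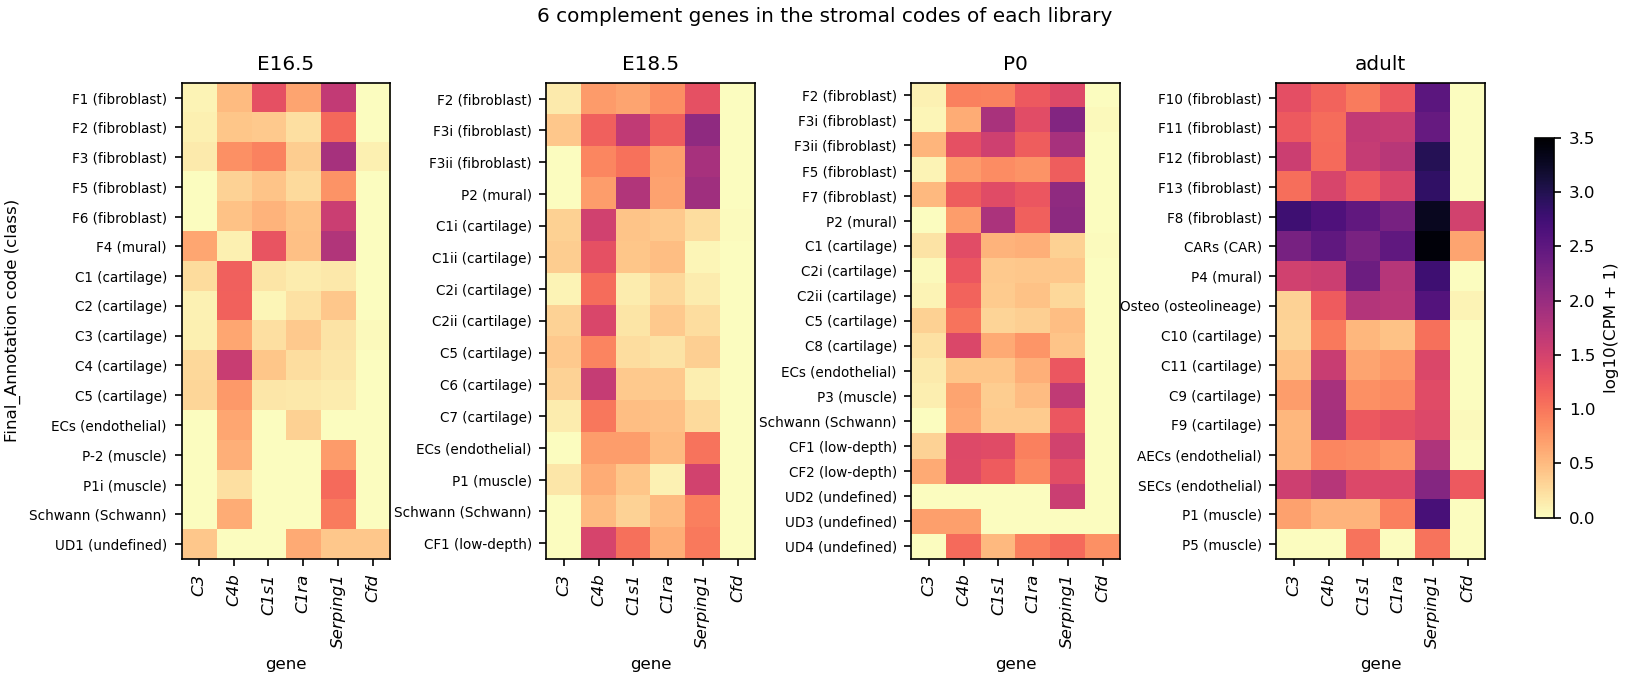
Level of each member (columns) in each stromal code (rows, class in brackets) of the 4 stages, as log10(CPM + 1) on a colour scale where darker is higher. F8 and the CARs are dark for 5 members in the adult, C3 is pale in the perinatal codes, and the darkest C4b cells before adulthood are in cartilage codes.

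Free RNA from lysed cells can place UMIs in cells that do not express a gene, so Clec3b, high in F8, was used as a tracer. In the CARs Clec3b was at 2.77% of its F8 level, while the members were at 32.0% (C3) to 165% (C1ra) of theirs. In P4 the tracer was at 8.31%, C3 at 5.59% and C4b at 8.32%, whereas C1s1 was at 80.9% and Serping1 at 30.2%. The C3 of P4 was below the tracer, 42 of its 54 UMIs came from 1 cell, and its source was not tested. Likewise 46 of 64 C3 UMIs of the SECs and 42 of 67 of fibroblast code F11 came from 1 cell each. In arterial endothelial cells (AECs), C3 was at 2.49 CPM, below the tracer.

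At a fixed depth, fewer F8 cells held a UMI of C3, C4b, C1s1 or C1ra than of Serping1. With each cell thinned to 1000 UMIs, 27.5% of F8 cells (24.9 to 30.2, exact binomial) held a C3 UMI, 22.5% C4b, 24.5% C1s1, 17.3% C1ra and 70.1% Serping1. In AECs, with 6 C3 UMIs in 5 of 400 cells, the share was 0.514%. The unthinned shares were 51.2% in F8 (median depth 11706 UMIs) and 1.25% in AECs (4521 UMIs). In the CARs the thinned shares were 13.9% for C3, 28.1% for C4b, 20.1% for C1s1, 29.8% for C1ra and 84.1% for Serping1. The tenth of F8 cells richest in the gene held 56.6% of the C3 counts and 56.9% of the C4b counts, but 29.9% of C1s1 and 30.2% of Serping1.

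C3 and C4b UMIs were found together in F8 cells. At 1000 UMIs per cell, 49.2% (43.5 to 54.9) of the 309 F8 cells with a C3 UMI also held C4b, against 13.1% (10.9 to 15.6) of the 815 without. The other members went the same way with smaller gaps: C1s1 was in 31.1% against 18.4%, C1ra in 23.9% against 11.8% and Serping1 in 85.8% against 68.2%. A second random thinning gave 46.1% of 295 F8 cells against 12.7% of 829 for C4b. In the CARs, C4b was in 45.8% (31.4 to 60.8) of 48 cells with C3 and in 24.4% (19.8 to 29.6) of 311 without, but the second thinning gave 36.0% (22.9 to 50.8) of 50 against 23.0% (18.4 to 28.1) of 309, and these intervals overlap. No difference beyond counting error is therefore read for C4b in the CARs. Cells of 1 library are not replicates, so these shares describe this library.

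Before adulthood C4b was chiefly a cartilage transcript. Cartilage codes held 88.2%, 87.6% and 74.5% of C4b counts in the E16.5, E18.5 and P0 libraries, but 22.1% in the adult. Their shares of all UMIs were 53.6%, 70.3%, 57.5% and 46.9% in stage order. The class level was 13.8, 24.2, 18.8 and 50.3 CPM in that order, an adult to P0 ratio of 2.67 (2.52 to 2.84). Codes differed within the class. The highest was C4 at E16.5 (37.8 CPM), C6 at E18.5 (40.8), C8 at P0 (26.1) and F9 in the adult (80.9), a code rich in the joint lubricant gene Prg4. The codes highest in Ihh, a gene of prehypertrophic and hypertrophic chondrocytes, were low, with C5 at 4.62, 6.93 and 9.58 CPM and adult C10 at 8.50; only E16.5 C3 (3.53 CPM) was lower at that stage. Adult F9 had the hypertrophic gene Col10a1 at 816 CPM but Ihh at 3.26.

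The cartilage codes highest in C4b before adulthood were also those highest in immediate early genes, a set of 8 transcripts that rise within minutes of stimulation or tissue handling. Their summed level was 16431 CPM in E16.5 C4, 17863 in E18.5 C6 and 14880.5 in P0 C8. Not every code went this way: E18.5 C1i, with C4b at 32.9 CPM, had 7002, adult F9 had 8177, and adult C10 with little C4b had 16447. When the cells of each of 21 cartilage codes were split into those high and low in Fos, C4b was higher in the Fos-high cells of 17 codes, with a median ratio of 1.24 and a range of 0.653 to 2.33. The interval lay above 1 in 11 codes and below 1 in none. The part of tissue handling in the C4b level was not tested.

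**Figure D3:**
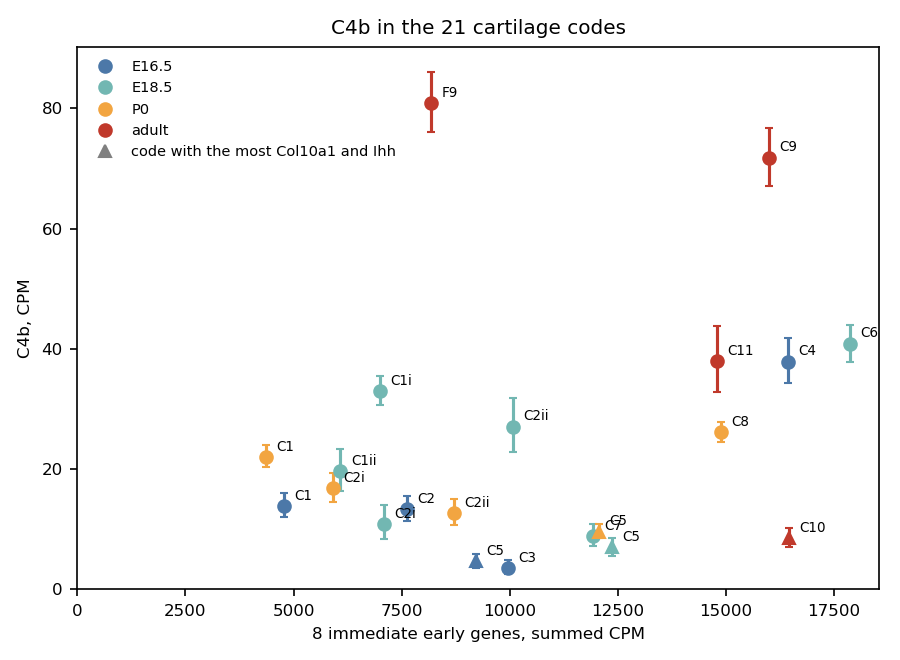
C4b level (CPM, bars exact Poisson 95% intervals) of each of 21 cartilage codes against the summed CPM of 8 immediate early genes, coloured by stage, with triangles for the code of each stage richest in Col10a1 and Ihh. C4, C6 and C8 lie to the right and highest of their stage, adult F9 is highest in C4b at a lower sum, and the triangles lie low.

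Outside cartilage, perinatal C4b was set against a ceiling from the Col2a1 tracer, and its source was not tested. The ceiling takes the C4b to Col2a1 ratio of 1 cartilage code per stage (C4, C6 or C8). Cartilage codes differed in that ratio: E16.5 C3 had Col2a1 at 97.4% and C4b at 9.32% of C4. Fibroblast codes lay on both sides of the ceiling. In E18.5 F3i C4b was at 13.9 CPM against a tracer ceiling of 5.49, and in P0 F7 at 14.8 against 2.01. The P0 code classed as fibroblast and highest in C4b, F3ii, was at 20.1 against 16.7. Its cartilage markers summed to 36705 CPM, above the 33781 of cartilage code C2i, and its fibroblast markers to 16918. Its paired name was not its highest-scoring one, so its C4b is not read as a fibroblast level. Codes below their ceilings included E16.5 F1 (2.18 against 2.79), E16.5 F2 (1.62 against 3.67) and E18.5 F2 (4.46 against 6.74). The E16.5 mural code F4 (0.262 CPM, 1 UMI) lay below its ceiling of 1.57. The E18.5 mural code P2 was at 4.21 CPM (1.82 to 8.29, 8 UMIs), an interval that included its ceiling of 5.30. The P0 mural code P2 was at 4.28 CPM (2.40 to 7.06, 15 UMIs), which included its ceiling of 3.07. No side is therefore read for these 2 codes. Narrow gaps in the fibroblast codes, as in E16.5 F1 and P0 F3ii, were not set against counting error.

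Serping1, C1s1 and C1ra had another perinatal distribution, in fibroblast and mural codes. The highest fibroblast code for Serping1 was F3 at E16.5 (73.7 CPM), F3i at E18.5 (118) and F3i at P0 (150.4). For C1s1 it was F1 at E16.5 (19.8 CPM) and F3i at E18.5 (45.3) and P0 (70.8), and for C1ra the same codes, at 3.55, 14.8 and 22.0 CPM. The mural codes had C1s1 at 18.1, 58.9 and 69.1 CPM and Serping1 at 59.7, 84.2 and 124 CPM, near the highest fibroblast codes. C1ra in the mural codes was lower, at 1.83, 3.68 and 13.7 CPM. In the cartilage class Serping1 stayed at 0.670, 0.658 and 1.54 CPM before adulthood and was 19.7 in the adult, where its source was not tested. Muscle codes had Serping1 at 9.21, 31.8, 44.7 and 429 CPM from E16.5 to adult.

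Within fibroblast codes, 6 of 6 members were called higher in the adult than at P0, against 5.19% of 13244 genes (6.35% were lower), and 5 without the cell richest in Cfd. These calls include F8: over the codes that the study names fibroblasts, 2 of 5 members tested, C3 and Serping1, were called higher in the adult, against 4.37% of 12852 genes (8.6% were lower). At P0, 2 of 5 members tested were called higher than at E16.5, against 1.72% of 12894 genes (0.372% were lower). The latter were C3 and C1ra, and 21 of the 48 C3 UMIs of P0 F7 came from 1 cell, without which the C3 call was lost. It was also lost with E16.5 F4 among the fibroblast codes. In cartilage codes 1 of 5 members tested, Serping1, was called higher in the adult, against 4.42% of 13448 genes (3.96% were lower). Adult Serping1 was below the ceiling set by the Clec3b tracer in C9 (22.8 against 27.0 CPM) and C10 (10.2 against 12.3). In F9 it was at 24.8 against 23.8 (311 UMIs), a gap that was not set against counting error. In C11 it was above the ceiling, at 25.8 against 3.73, and single cells held 44, 19 and 17 of its 130 UMIs. Its source was not tested.

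The adult level in fibroblasts outside F8 was close to that at P0 for some members and not for others. In the 4 other adult fibroblast codes together, C1s1 was at 20.6 CPM against 29.8 in all P0 fibroblast codes (ratio 0.691, 0.617 to 0.772). C4b was at 13.2 against 9.64 CPM (1.37, 1.18 to 1.60), and C1ra at 26.7 against 16.6 CPM (1.61, 1.44 to 1.80). For these 3 members the ranges over codes overlapped between P0 and adult. The direction of C1s1 rested on P0 F3i, the P0 code richest in PαS markers. Without it C1s1 was at 16.7 CPM at P0 (ratio 1.23, 1.08 to 1.39), and the ratio of C4b was 1.13 (0.965 to 1.31). Serping1 was at 422 against 91.3 CPM (4.63, 4.47 to 4.79) and did not overlap, with 262 to 952 CPM over the adult codes and 14.8 to 150.4 at P0. C3 was at 20.5 against 1.11 CPM (18.4, 14.1 to 24.3), with 1 cell deciding the C3 of F11. In each of these 4 codes C3 was below the ceiling set by the Clec3b tracer, at 20.3 against 175 CPM in F10, 15.7 against 20.6 in F11, 35.9 against 586 in F12 and 10.6 against 86.4 in F13. C4b was also below its ceiling in each of them, and C1s1 and C1ra were above theirs only in F11. Serping1 was below its ceiling in F10 (334 against 588 CPM) and F12 (952 against 1973). It was above the ceiling in F11 (262 against 69.3) and F13 (743 against 291). The sources were not tested. Clec3b itself stood at 30.1% (F10), 3.55% (F11), 101% (F12) and 14.9% (F13) of its F8 level there. Where a code holds Clec3b of its own, the ceiling is too high to bound free RNA. A level below the ceiling in F10, F12 or F13 is therefore not read as free RNA.

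The fibroblast code richest in PαS markers was next followed over the stages: F3 at E16.5, F3i at E18.5 and P0, and F8. C3 was at 0.401, 1.55, 0.144 and 580.0 CPM along these codes, so the perinatal codes with PαS markers held almost none. At P0 F3i and F7 were close in PαS markers (2819 and 2670 CPM summed), and F7 had more C3, at 2.30 CPM. The 10 leading genes of F3i included the muscle genes Ckm, Myl1, Acta1, Tnnc2 and Mylpf and no PαS marker, whereas those of F7 included Ly6a and Pi16. Muscle markers summed to 123 CPM in F3i, 25.1 in F7 and 1684 in muscle code P3, and their part in the comparison was not tested. Compared with F7, F8 was higher by 252-fold for C3 (190 to 342), 28.9-fold for C4b, 12.8-fold for C1s1, 11.0-fold for C1ra and 16.6-fold for Serping1. Compared with F3i the ratios were 141 for C4b, 4.08 for C1s1, 8.45 for C1ra and 13.0 for Serping1, and F3i held only 2 C3 UMIs. In this comparison 6 of 6 members were called, against 8.55% of 11380 genes (4.35% were lower), and the call of Cfd rested on its 1 cell. The PαS markers also differed, with Ly6a at 29.97 CPM in P0 F3i and 2543 in F8.

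Because the mix of cell classes changed with age, the levels were also averaged over the 5 classes present at all stages, with equal weight. The adult level under this mix was 63.8 CPM for C3 (P0 0.498), 61.7 for C4b (7.59), 79.3 for C1s1 (20.8), 35.9 for C1ra (7.60) and 445 for Serping1 (55.7). CARs do not enter this average. F8 stays in it within the fibroblast class, where it held 8438 of the 8823 adult C3 UMIs. The average gives an adult to P0 ratio of 3.81 for C1s1, under the fold of 4 used for calls. That of C1ra was 4.73 and that of Serping1 7.99.

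Antibody tags gave a second readout of the same cells. A cell was taken as positive above 1 after centred log-ratio transformation, and the antigen's own transcript was higher in positive cells throughout, by 7.07-fold (adult) to 74.0-fold (E16.5) for Ly6a with Sca-1 and by 2.53-fold (adult) to 5.46-fold (E16.5) for Pdgfra with CD140a. In the adult, all 5 abundant members were higher in Sca-1+ cells. C3 was at 312 CPM in 1271 Sca-1+ cells and 54.7 in 4996 Sca-1- cells (5.71-fold, 5.48 to 5.95), and the others were higher by 2.45-fold (C1ra) to 3.43-fold (C4b). CD140a, the PDGFRα protein, separated Serping1 most before adulthood: in stage order CD140a+ cells were higher by 9.05, 10.9, 6.09 and 2.37-fold. C1s1 followed, at 5.61, 7.08, 5.02 and 2.19-fold. C4b was instead lower in CD140a+ cells at E16.5, E18.5 and P0. In the adult, 3.90% of the CARs, the code highest in Serping1, and 47.1% of F8 cells were CD140a+. Most CARs therefore lie on the CD140a- side of the adult ratios. The adult Sca-1+CD140a+ cells (752) were 57.2% F8 and had C3 at 269.8 CPM, while the 519 Sca-1+CD140a- cells had 402. Within F8 the Sca-1+ to Sca-1- ratio was only 1.20 (1.14 to 1.25) for C3 and 0.877 (0.825 to 0.932) for C1s1. The CD140a+ to CD140a- ratio within F8 was below 1 for C3 (0.738, 0.706 to 0.770), C1s1 (0.741, 0.697 to 0.788), C1ra (0.836, 0.774 to 0.902) and Serping1 (0.874, 0.854 to 0.895). Over all adult stroma these 4 members had the opposite direction, with C3 at 2.68 and C1ra at 1.89 beside the values above. C4b was at 1.01 (0.964 to 1.07) within F8.

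**Figure D4:**
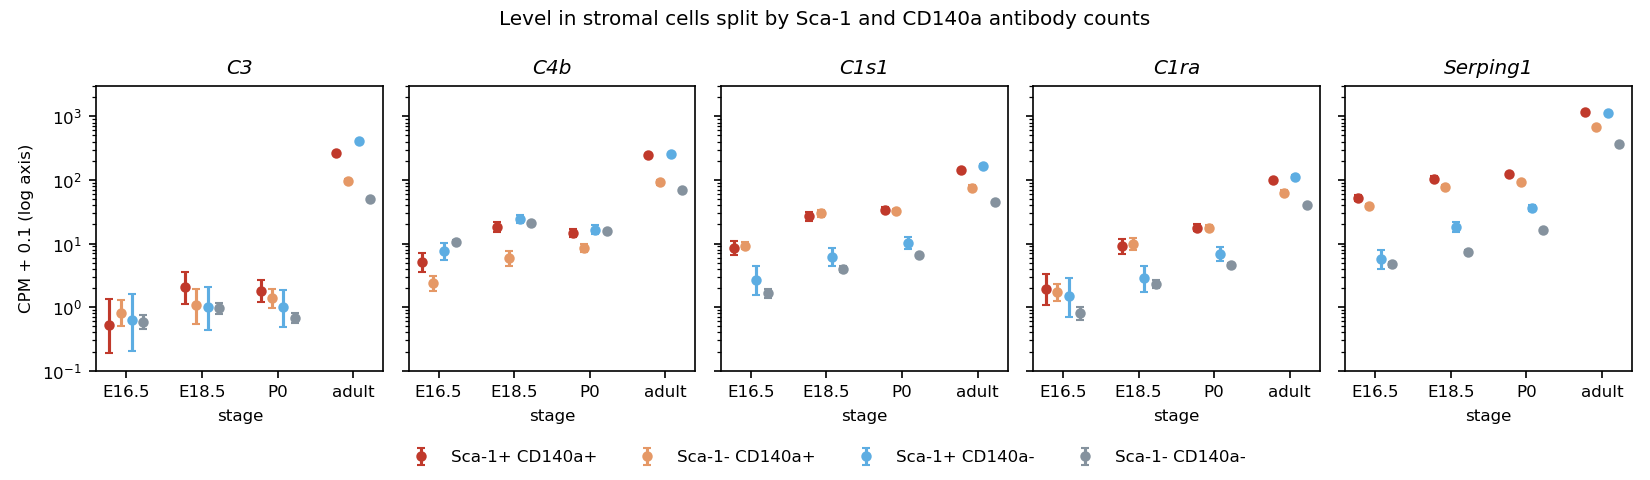
Level of 5 members by stage, as CPM + 0.1 on a log axis with exact Poisson 95% intervals, in stromal cells split by the Sca-1 and CD140a antibodies into 4 kinds. Serping1 and C1s1 are higher in the CD140a+ kinds (red, orange) before adulthood, and in the adult both Sca-1+ kinds (red, blue) are highest for all 5 members.

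The other complement genes were counted from a list of 53, of which 40 were measured. For adult against P0, 27 were tested, 13 were higher and 1 was lower, against 6.36% of all genes higher and 4.6% lower; the median log2 ratio of those tested was 0.89. For P0 against E16.5, 21 were tested and 2, Clu and C5ar2, were higher, against 1.11% of all genes. The recognition subunits C1qa, C1qb and C1qc were nearly absent from the stroma, at 12, 9 and 12 UMIs at P0 and 5, 4 and 3 in the adult. The part of the study's removal of blood cells in this was not tested. C2, cleaved together with C4, was at 13.6 CPM in the adult and 1.498 at P0, and its highest adult code was the CARs (206 CPM, with UMIs in 209 of 359 cells). Cfb, the factor B cleaved by factor D, was at 4.72 and 0.0924 CPM (51.1-fold, from 18 UMIs at P0), with 330 of its 434 adult UMIs in F8. The terminal component C6 was at 433 UMIs in the adult and 3 at P0, and 417 of the adult UMIs were in 159 CARs.

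Regulators other than Serping1 had their own sites. Clu, which binds the terminal complex, was at 77.2 and 2474 CPM (32.0-fold), highest in adult F10 (9064 CPM). Cd55, a membrane regulator, was at 19.9 and 67.5 CPM and did not pass the fold. The gene called lower was Masp2, a lectin pathway protease, at 112 UMIs at P0 and 6 in the adult. In the fibroblast codes, 10 of 20 others tested were higher in the adult and 1, C8g, was lower, against 5.19% and 6.35% of all genes. These codes include F8. Over the codes that the study names fibroblasts, 5 of 14 others tested were higher and 3 lower, against 4.37% and 8.6% of all genes.

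**Figure D5:**
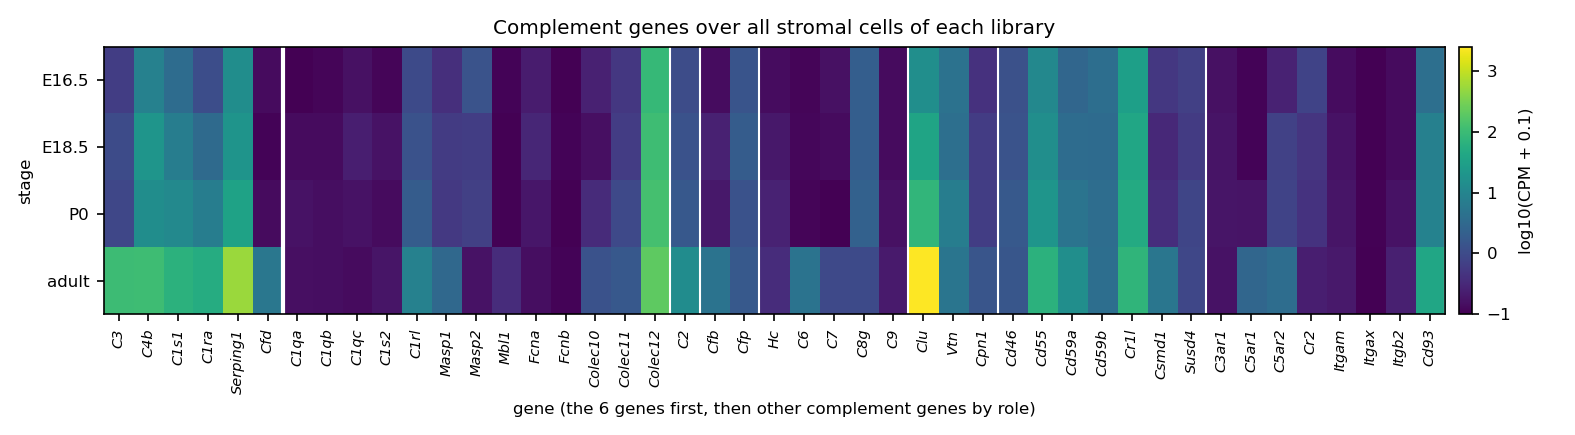
Level of the 6 members and of other complement genes, grouped by role between white lines, over all stromal cells of the 4 libraries (rows), as log10(CPM + 0.1) on a colour scale where yellow is higher. C2, Cfb, C6 and Clu are highest in the adult, and the C1q genes are near 0 at all stages.

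Across the 65 codes with at least 50 cells, log2(CPM + 1) of C1s1 followed that of its neighbour C1ra most closely among the member pairs (Pearson r 0.878, Spearman rho 0.860). Serping1 followed C1s1 (r 0.812) and C1ra (r 0.799), whereas C4b and Serping1 were nearly unrelated (r 0.216, rho 0.0632). Codes of a stage share a library and its depth, so these values describe the codes and carry no test. Among 14657 other genes the closest to Serping1 were Flot2 (r 0.863), Ube2l6 (0.846) and Nbl1 (0.840), which were also its closest by rank. Those closest to C3 were Wisp2 (0.799), Amy1 (0.795) and Cfb (0.787). Those closest to C4b were Sned1, Gpr108 and Lbp (0.762 to 0.710), to C1s1 Adamts2, Irak3 and Nnmt (0.827 to 0.825), and to C1ra Mettl7a1, Acbd4 and Gsn (0.840 to 0.839). By rank these lists changed: C3, C4b and C1s1 shared 0 of 3 genes with the printed ones and C1ra shared 1, and the closest to C3 by rank were Hp, Il17ra and Stat5a (rho 0.734 to 0.704), while the rho of Cfb was 0.449.

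C4b, C1ra and C1s1 have near copies in the genome, so a part of their reads could match either copy. Of the 50-base windows in the last 500 bases of the transcript, 38.1% of C4b were shared with C4a, 19.1% of C1ra with C1rb and 18.0% of C1s1 with C1s2. How many reads this touched was not measured, so counts of C4b, C1ra and C1s1 are uncertain. C1s2 itself was at 2 to 7 UMIs per stromal library, and C4a and C1rb were not among the measured genes.

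In the haematopoietic libraries of the same stages C3 was the highest member. It was at 7.23 and 3.60 CPM in both E16.5 libraries and then, in stage order, at 17.3, 11.8 and 86.0 CPM, and the other members did not exceed 0.845 CPM (C1ra in the adult, 50 UMIs). The adult code with the highest C3 there was Neu3 (521 CPM, 59.6% of the library's C3). In the adult stroma the 4 neutrophil markers summed to 4.74 CPM in F8 and 16.3 CPM in the CARs, none of them at 0, and their part in the C3 level was not tested.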

How the data were processed

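Cells were sorted as CD45-Ter119- stroma or as haematopoietic cells, run on a droplet 3′ single-cell platform with antibody tags, and aligned to mm10; the submitters' processing notes name Cell Ranger 3.1.0, R 4.0 and Seurat 3.1.5. The authors deposited raw UMI counts per gene and cell, raw antibody tag counts, and a table of cells with the mitochondrial fraction, which the authors deposited as a fraction of UMIs although its name says percent. Per the study's methods, cells in the top percentiles of genes and UMIs (doublets), cells with a high mitochondrial share and shallow cells had been removed; no doublet caller was run here. The stromal libraries in the files hold fewer cells than the study states. The study's methods also report that contaminating blood cells were taken out of the stromal data it shows. Whether the cells in the files had passed that step is not stated. Cluster codes come from the deposited table. They were paired within a stage with the study's cluster names by marker score, which was highest for the paired name in 65 of 66 codes, and classes were set by marker genes where these differed from the name (20 codes), a departure from the planned classes by name alone.

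Counts were summed per library, class or code with Python 3.11.15, numpy 2.4.6, pandas 2.3.3 and scipy 1.17.1, and are given as CPM. Intervals at 95% are exact Poisson for levels, exact Clopper-Pearson for shares and exact binomial for ratios. There is 1 stromal library per stage, so no test was run; a gene was called at a CPM ratio of 4 with at least 50 counts in the higher library. The text names the 6 members, complement genes of a fixed list past that fold or defining a role, and the 3 genes with the highest Pearson r to each member. Antibody counts were centred log-ratio transformed per antibody, and the median antibody count per cell was 23 to 57. Members and lists were chosen with earlier results of these data known. The call and interval code was tested on simulated data. TMM factors came from edgeR 4.0.16 in R 4.3.3. Sequences are from RefSeq on GRCm38. A gene of the complement list enters the counts but is not reported here by name. Other antibodies and haematopoietic libraries were not analysed here beyond the values given.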

Additional observations from a re-analysis of the deposited data

Results flagged for a closer look

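At the log-ratio level of 1, the relation of C4b and, for CD73, of Serping1 to the antibody readouts turned between stages, and each difference was not tested, since there was 1 library per stage. The ratio of its level in Sca-1+ to Sca-1- cells was 0.708 in the E16.5 library and 3.43 in the adult one. For E18.5 the ratio was 1.11 (interval 0.975 to 1.26), and for P0 1.06 (interval 0.948 to 1.19). The ratio in CD140a+ to CD140a- cells was, in stage order from E16.5, 0.289, 0.515, 0.696 and 2.28. The ratio in CD31+ to CD31- cells, CD31 being an endothelial antigen, was 0.704, 0.615, 0.732 and 1.55 in the same order. The adult endothelial codes had C4b at 27.5 CPM against 106 over all adult stroma, so this ratio is not read as an endothelial level. In CD73+ against CD73- cells, CD73 being the ecto-nucleotidase encoded by Nt5e, the ratio of C4b was 1.24, 0.695, 0.942 (0.869 to 1.02) and 1.08, and that of Serping1 was 0.676, 1.47, 0.918 and 1.32. The CD73 directions depended on the level. At 1.5 the ratios of C4b were 0.676, 0.429, 0.683 and 1.38, and those of Serping1 were 0.901 (0.782 to 1.03), 2.46, 1.39 and 1.39, so that no Serping1 ratio lay below 1 beyond its interval. At 0.75 the Serping1 ratio of E18.5 was 1.03, with an interval that included 1. For Sca-1, CD140a and CD31 the C4b ratio was below 1 at E16.5 and above 1 in the adult at both other levels. Beside the C4b values, cartilage codes held 88.2%, 87.6%, 74.5% and 22.1% of the C4b counts at the 4 stages, and 53.6%, 70.3%, 57.5% and 46.9% of all UMIs.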

How the results depend on the processing

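No paired analysis was possible because each stage had 1 stromal library. Over all stromal cells the adult to P0 ratio stayed above 1 for every member under every alternative run, at 114 to 178 for C3, 6.09 to 8.41 for C4b, 3.81 to 6.17 for C1s1, 4.73 to 8.96 for C1ra, 7.99 to 18.4 for Serping1 and 31.8 to 779 for Cfd. The lowest value of Cfd leaves out the richest cell of each library, that of P0 too; without the adult cell alone it was 13.6. The counts of members and other complement genes called higher in the adult stayed within 1.5 times of the values given, with 1 exception. That was classes by the study's names alone, added after seeing the data, which moves F8 out of the fibroblasts. There the members fell from 6 to 2 and the others from 10 to 5. The adult to P0 ratio of C1s1 in fibroblast codes turned from 4.62 to 0.691. For P0 against E16.5 by those names, 1 of 5 members and 1 of 12 others tested were called higher. Of 13010 genes tested there, 1.35% were higher and 0.515% lower. By those names, 3 of 14 other complement genes tested in fibroblast codes were called lower in the adult, against 8.6% of all genes. The counts for P0 against E16.5 moved. The shares of all genes called at the other folds and minimum counts are not given. The counts at those settings are therefore not read as results about complement genes. Over all stromal cells, a fold of 2 raised the members from 1 to 3 and the other complement genes from 2 to 5, and the others were also 5 with no minimum count. In fibroblast codes, a fold of 2 raised the members from 2 to 5, and leaving out the cell richest in each gene, chosen after seeing the data, lowered them to 1. The other complement genes there went from 2 to 5 at a fold of 2, to 4 with at least 20 counts and to 7 with no minimum. Among the single values, 241 of the alternatives moved by more than the interval, 354 did not and 11 reversed, where a reversal was counted only for a ratio whose interval excluded 1. Besides that of C1s1, all were antibody ratios at a log-ratio level of 1.5. The CD140a+ to CD140a- ratio of C3 at P0 went from 2.40 to 0.931. For CD31, C3 went from 3.63 to 0.939 at P0, where the endothelial codes held 1 C3 UMI. In the adult the CD31 ratio of C3 went to 0.850, of C1s1 to 0.993 and of C1ra to 0.875. That of Serping1 went to 0.996 at P0 and 0.995 in the adult. For CD73, the ratio became 1.02 for adult C3, 0.676 for E16.5 C4b and 1.39 for P0 Serping1. Some ratios whose intervals included 1 also crossed it, such as C3 at E16.5, from 1.33 to 0.699 for CD140a and from 0.876 to 1.28 for Sca-1. The cause was not tested. C3 and Cfd rest on few UMIs before adulthood, although each of those stromal libraries had a median depth above the 11810 UMIs of the adult one.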
